A study of Mus musculus with 32 samples.

Results

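Old muscle treated with BI01 was set against young muscle given vehicle, both taken 35 days after injury, to see what still separated the treated old tissue from young regenerated tissue. The comparison used 8 of the 32 libraries of the series, chosen by the group in their labels: 4 of old mice given BI01 and 4 of young mice given vehicle. All animals were C57BL/6J mice, and the tissue was the tibialis anterior, a fast muscle at the front of the shin, injured by barium chloride (written BaCl in the labels). The 4 old vehicle libraries of day 35 and 16 further libraries served for reference: old BI01 and young vehicle at day 7, and old and young vehicle without injury (PBS in the library names). BI01 is a senolytic by the labels, and the series title places its action at the binding of p53 to MDM2. The sources used here give no ages in months, dose, schedule or sex, and do not say whether each library is a separate animal.

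As background, barium chloride kills muscle fibres and spares most of the satellite cells, which divide and fuse to build new fibres. By a month after injury a fast muscle of the mouse has largely regained its fibre structure. In resting muscle, FoxO transcription factors switch on genes of protein breakdown and autophagy, PPAR factors switch on genes for burning fat, and both programmes are strong when insulin is low or glucocorticoids are high. Skeletal muscle also holds its own circadian clock, in which CLOCK and ARNTL drive genes such as Dbp and Nr1d1 and are held back by the PER and CRY proteins. Senolytics are compounds meant to kill senescent cells, which carry high p16 (from Cdkn2a) or p21 (from Cdkn1a) and secrete cytokines and proteases.

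The sequences below are the 250 bases upstream of the RefSeq start of 4 genes described later, on the plus strand, 5′ to 3′ (RefSeq, GRCm38.p6). Trim63, Tmem140 and Tspan8 are the 3 genes among the 10 largest falls whose window held the FoxO core motif GTAAACA, and Stat2 is a called interferon gene whose window held the interferon-type element: GAAA, any 2 bases, GAAA. Capitals mark the motif for which each gene is shown, which lies on the opposite strand in all 4.
Trim63 (chr4:134314870-134315119): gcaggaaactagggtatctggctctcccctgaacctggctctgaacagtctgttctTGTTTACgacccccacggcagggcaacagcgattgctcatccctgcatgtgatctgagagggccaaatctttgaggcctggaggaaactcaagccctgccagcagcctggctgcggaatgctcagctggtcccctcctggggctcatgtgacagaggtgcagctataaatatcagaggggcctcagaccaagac
Tmem140 (chr6:34862896-34863145): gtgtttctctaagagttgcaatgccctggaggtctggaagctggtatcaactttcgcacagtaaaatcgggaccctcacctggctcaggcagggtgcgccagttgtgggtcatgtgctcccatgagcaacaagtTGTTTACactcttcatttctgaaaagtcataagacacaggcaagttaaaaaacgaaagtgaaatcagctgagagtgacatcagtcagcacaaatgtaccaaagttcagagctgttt
Tspan8 (chr10:115817034-115817283): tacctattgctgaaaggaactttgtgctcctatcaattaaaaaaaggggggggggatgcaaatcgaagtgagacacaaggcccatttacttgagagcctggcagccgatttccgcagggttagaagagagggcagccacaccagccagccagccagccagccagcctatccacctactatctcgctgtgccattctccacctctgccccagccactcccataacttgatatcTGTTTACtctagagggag
Stat2 (chr10:128270248-128270497): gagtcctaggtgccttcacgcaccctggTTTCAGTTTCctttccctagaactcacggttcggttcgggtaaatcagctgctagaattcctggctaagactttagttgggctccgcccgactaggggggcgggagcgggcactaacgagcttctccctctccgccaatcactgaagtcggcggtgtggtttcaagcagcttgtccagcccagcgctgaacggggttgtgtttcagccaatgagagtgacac
The FoxO match began 194 bases before the start in Trim63, 116 in Tmem140 and 18 in Tspan8, and the interferon match 222 bases before it in Stat2. The Tmem140 window also held an interferon-type match, on the plus strand from 63 to 54 bases before the start, which is not in capitals. For Tspan8 and Stat2 the RefSeq start differs by 452 and 61 bases from the 5′ end that the count table gives. The Tspan8 window thus lies inside the gene as counted, not upstream of it. Searched on both strands, GTAAACA was present in 8 of the 107 called lower genes with a promoter entry (7.48%), in 4 of the 112 called higher (3.57%) and in 259 of all 11904 (2.18%). The interferon-type element was present in 3 called lower (2.80%), 4 called higher (3.57%) and 2.81% of all promoters. The E-box CACGTG, the site of CLOCK and ARNTL, was present in 8.41% of called lower, 8.04% of called higher and 8.15% of all promoters. A match is a run of letters, not a shown binding site.

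Total counts per library of day 35 were 15141390 to 24356966 in young, 16419816 to 16886978 in old BI01 and 16077532 to 19820190 in old vehicle muscle. Of the 7 skeletal fibre markers (Acta1, Ckm, Mylpf, Tnnt3, Myh4, Myh1 and Atp2a1) none was called, and their summed level was 160748 to 235167 CPM (counts per 1e6 counts of the scaled library) in old BI01 and 184011 to 234224 CPM in young libraries, so that both groups show the labelled tissue. On principal components of the 8 libraries the first component (29.1% of variance) held all 4 young libraries below 0 and all 4 BI01 libraries above 0. BI01 library 7 stood apart on the second component, at -31.3 where the other 7 lay between -7.23 and 18.5. Scaling factors were 0.77 to 0.91 in the 3 groups of day 35.

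Of 17121 genes tested, 284 differed between old BI01 and young muscle (1.66%) at an adjusted p below 0.05, hereafter called. There were 150 higher (0.876%) and 134 lower (0.783%) in old BI01 muscle. Of the 284, 276 were protein-coding, 75 rose and 63 fell by more than 2-fold, and in 256 the 4 BI01 libraries did not overlap the 4 young ones, as held for 11% of all genes tested. The median log2 fold change (old BI01 over young) was 1.00 among genes called higher, -0.95 among those called lower and 0.02 over all genes. The median gene's 95% interval reached 0.59 to either side on the log2 scale, a width that corresponds to an unadjusted p of 0.05. The largest unadjusted edgeR p among called genes was 0.00079. In such a gene a difference thus had to be clearly larger than 0.59 to be called. The count moved with the libraries used, from 125 without young library 2 to 258 without BI01 library 6. It was 163 and 180 without young libraries 1 and 3, and 137 and 142 without BI01 libraries 8 and 9. With library size alone in place of TMM scaling 237 genes were called and 65.8% of them were higher, against 52.8% here, and with limma voom 193 were called and 41.5% were higher. Since this is bulk tissue, fewer cells of a type and less RNA per cell cannot be told apart in any of these values.

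Genes that favour fat over glucose as fuel were lower in old BI01 muscle. Of 24 tested genes of fatty acid use 7 fell and 0 rose (29.2% called, against 1.66% of all genes). The list median was -0.37 against 0.02 over all genes. Pdk4 (chr6:5483351-5496309, mm10), the kinase that shuts pyruvate dehydrogenase when fat is burned, was at 6127, 6145, 3209 and 3087 CPM in young libraries 1 to 4 and at 1238, 116, 436 and 142 CPM in BI01 libraries 6 to 9. It fell 9.61-fold (log2 fold change -3.26, SE 0.62, adjusted p = 0.00417). All BI01 libraries lay below all young ones, yet they spread over a wide range, and without BI01 library 6, the highest, the log2 fold change was -4.33. Acot2 (chr12:83987861-83993873), a mitochondrial thioesterase that frees fatty acids from coenzyme A, was at 90.9, 91.7, 52.0 and 46.4 CPM in young and at 10.4, 5.0, 11.2 and 11.3 CPM in BI01 libraries. All 4 BI01 libraries were far below the young ones (-2.89, SE 0.28, adjusted p = 2.18e-07). Ucp3 (chr7:100472990-100486432), an uncoupling protein of the mitochondrial membrane that follows fatty acid supply, was at 520, 668, 510 and 432 CPM in young and at 142, 36.8, 123 and 65.8 CPM in BI01 libraries (-2.54, SE 0.48, adjusted p = 0.00417). Mlycd (chr8:119394878-119411102), whose enzyme removes the malonyl-CoA that blocks fat entry into mitochondria, fell from 186 ± 30.4 CPM (SD, n = 4) to 81.8 ± 13.0 CPM (-1.18, SE 0.20, adjusted p = 0.000926).

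Angptl4 (chr17:33773750-33781575), a secreted inhibitor of lipoprotein lipase, fell from 28.1 ± 7.56 to 4.08 ± 3.59 CPM (-2.78, SE 0.65, adjusted p = 0.0226). BI01 libraries 6 and 8 had 7.70 and 6.63 CPM, and libraries 7 and 9 had 1.12 and 0.861 CPM. Leaving out young library 1 or 2 ended the call (adjusted p = 0.0657 and 0.0672), as did leaving out BI01 library 7 or 9 (0.0731 and 0.0972). Acot1, a close paralog of Acot2 with which reads may be shared, and Plin5, a lipid droplet protein, were also called lower. Acot1 was at 0.249 ± 0.0343 CPM in BI01 and 2.5 ± 1.46 CPM in young muscle, and lost the call without young library 1 (0.0835) and BI01 libraries 8 (0.0615) and 9 (0.0563). Plin5 was at 5.17 ± 2.87 and 19 ± 10.7 CPM, and lost it without young libraries 1 (0.188) and 2 (0.114) and BI01 libraries 6 (0.103), 7 (0.115) and 9 (0.117). The enzymes of the beta-oxidation spiral itself did not pass the test. Hadha had 405 CPM in BI01 and 457 CPM in young muscle, Acadm 262 and 277 CPM, and Acadl 185 and 305 CPM (-0.73, adjusted p = 0.083). Adipocyte markers (Adipoq, Plin1 and Cidec) were not called and summed to 3.74 to 18.4 CPM in BI01 and 8.78 to 23.7 CPM in young libraries. The wider list of 18 adipocyte and fat storage genes, some of which fibres also express, had 0 called, 12 below 0 and a median of -0.38, close to that of fatty acid use. Its summed level was 870 to 1217 CPM in BI01 and 1311 to 1828 CPM in young libraries, with no overlap. The part of adipocytes in these falls was not tested.

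Genes of muscle atrophy and FoxO signalling were lower as well. Of 23 tested, 8 fell and 0 rose (34.8% called, against 1.66% of all genes). A negative fold change was found in 22, while 52.3% of all genes lay above 0. The list median was -0.61. Trim63 (chr4:134315120-134329629), the ubiquitin ligase MuRF1 that marks sarcomere proteins for breakdown, was at 1397, 1091, 626 and 698 CPM in young and at 370, 194, 203 and 153 CPM in BI01 libraries. It fell (-2.05, SE 0.43, adjusted p = 0.00869), and without BI01 library 9 the adjusted p was 0.0502. Ddit4 (chr10:59949669-59951834), the stress-induced brake on mTORC1, was at 31.2, 32.8, 141 and 86.1 CPM in young and at 21.1, 8.29, 7.70 and 5.31 CPM in BI01 libraries (-2.78, SE 0.56, adjusted p = 0.00678). Young libraries 3 and 4 were its highest, whereas young libraries 1 and 2 were the highest for Trim63 and Pdk4. Further members act in autophagy or as ubiquitin ligases. Ulk1 (chr5:110784488-110810097), the kinase that starts autophagy, was at 298, 300, 243 and 199 CPM in young and at 155, 121, 109 and 105 CPM in BI01 libraries (-1.09, SE 0.21, adjusted p = 0.00391). Gabarapl1, which builds autophagosomes, fell from 96.5 ± 36.7 to 37.9 ± 9.67 CPM (-1.35, SE 0.28, adjusted p = 0.00777, or 0.053 without young library 1). Fbxo21 (chr5:117976730-118010201), a ubiquitin ligase subunit induced in atrophy, was at 38.7, 36.9, 31.0 and 32.4 CPM in young and at 13.7, 17.0, 17.0 and 17.4 CPM in BI01 libraries (-1.09, SE 0.15, adjusted p = 6.45e-05).

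The other 3 called members were Fbxo32, Sqstm1 and Cebpb. Fbxo32, which encodes the ligase atrogin-1, was at 1990, 1748, 1015 and 966 CPM in young and at 770, 292, 312 and 352 CPM in BI01 libraries (-1.73, adjusted p = 0.0414). It lost the call without young libraries 1 (0.136), 2 (0.134) and 3 (0.0514) and BI01 libraries 7 (0.114), 8 (0.152) and 9 (0.152). Sqstm1, the autophagy receptor p62, fell from 1097 ± 78.3 to 617 ± 99.8 CPM (-0.83, adjusted p = 0.0101, or 0.0691 without BI01 library 8). Cebpb, a transcription factor of stress and differentiation, was at 75.0 CPM in BI01 library 6 and at 18.8 to 36.7 CPM in the other 3, against 90.5 to 107 CPM in young libraries (adjusted p = 0.0432). Its call was lost without any 1 of the 8 libraries except BI01 library 6, at adjusted p-values of 0.0967, 0.0984, 0.107 and 0.088 without young libraries 1 to 4 and 0.112, 0.143 and 0.174 without BI01 libraries 7 to 9. The FoxO genes themselves were not called, with Foxo1 at 19.2 and 25.3 CPM, Foxo3 at 41.1 and 61.3 CPM and Foxo4 at 265 and 298 CPM in BI01 and young muscle.

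Of the remaining large falls, Slc25a25 (chr2:32414487-32451445), a mitochondrial carrier that exchanges ATP-Mg for phosphate, was at 57.3, 71.3, 435 and 244 CPM in young and at 19.2, 23, 28.1 and 14.3 CPM in BI01 libraries (-3.25, SE 0.54, adjusted p = 0.00115). The young libraries were far apart, and without young library 3 the log2 fold change was -2.55. Arrdc3 (chr13:80883384-80896042), an arrestin-domain protein that acts on beta-adrenergic receptors, was at 110, 144, 306 and 265 CPM in young and at 71.8, 33.2, 43.9 and 38.5 CPM in BI01 libraries (-2.14, SE 0.35, adjusted p = 0.000799). Tmem140 (chr6:34863146-34874946), a membrane protein, was at 73.0, 65.9, 42.7 and 46.9 CPM in young and at 23, 14.0, 14.3 and 10.6 CPM in BI01 libraries (-1.89, SE 0.26, adjusted p = 4.77e-05). Tspan8 (chr10:115816832-115849893), a tetraspanin, was at 49.6 to 59.4 CPM in young and at 10.7 to 20.3 CPM in BI01 libraries (-1.88, SE 0.43, adjusted p = 0.0182), and lost the call without BI01 libraries 8 (0.0755) or 9 (0.0872). Both Tmem140 and Tspan8 carry the FoxO letters printed above, as does Mdm2, which was not called. Some further called genes were picked after their values were seen. Catalase (Cat), which breaks down hydrogen peroxide, was at 134 to 172 CPM in young and at 40.0 to 57.3 CPM in BI01 libraries (-1.52, SE 0.17, adjusted p = 3.4e-06). Tsc22d3, the glucocorticoid-induced leucine zipper GILZ, was at 371, 354, 463 and 494 CPM in young and at 193, 160, 151 and 120 CPM in BI01 libraries (-1.43, SE 0.22, adjusted p = 0.000321). Of 25 immediate early genes 2 fell (8%, against 1.66% of all genes called). They were Jun at 189 ± 24 and 75.4 ± 6.69 CPM (-1.32, adjusted p = 0.000926) and Btg2 at 40.4 ± 14.5 and 12.5 ± 3.19 CPM (-1.70, adjusted p = 0.00719), in young and BI01 muscle.

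**Figure D1:**
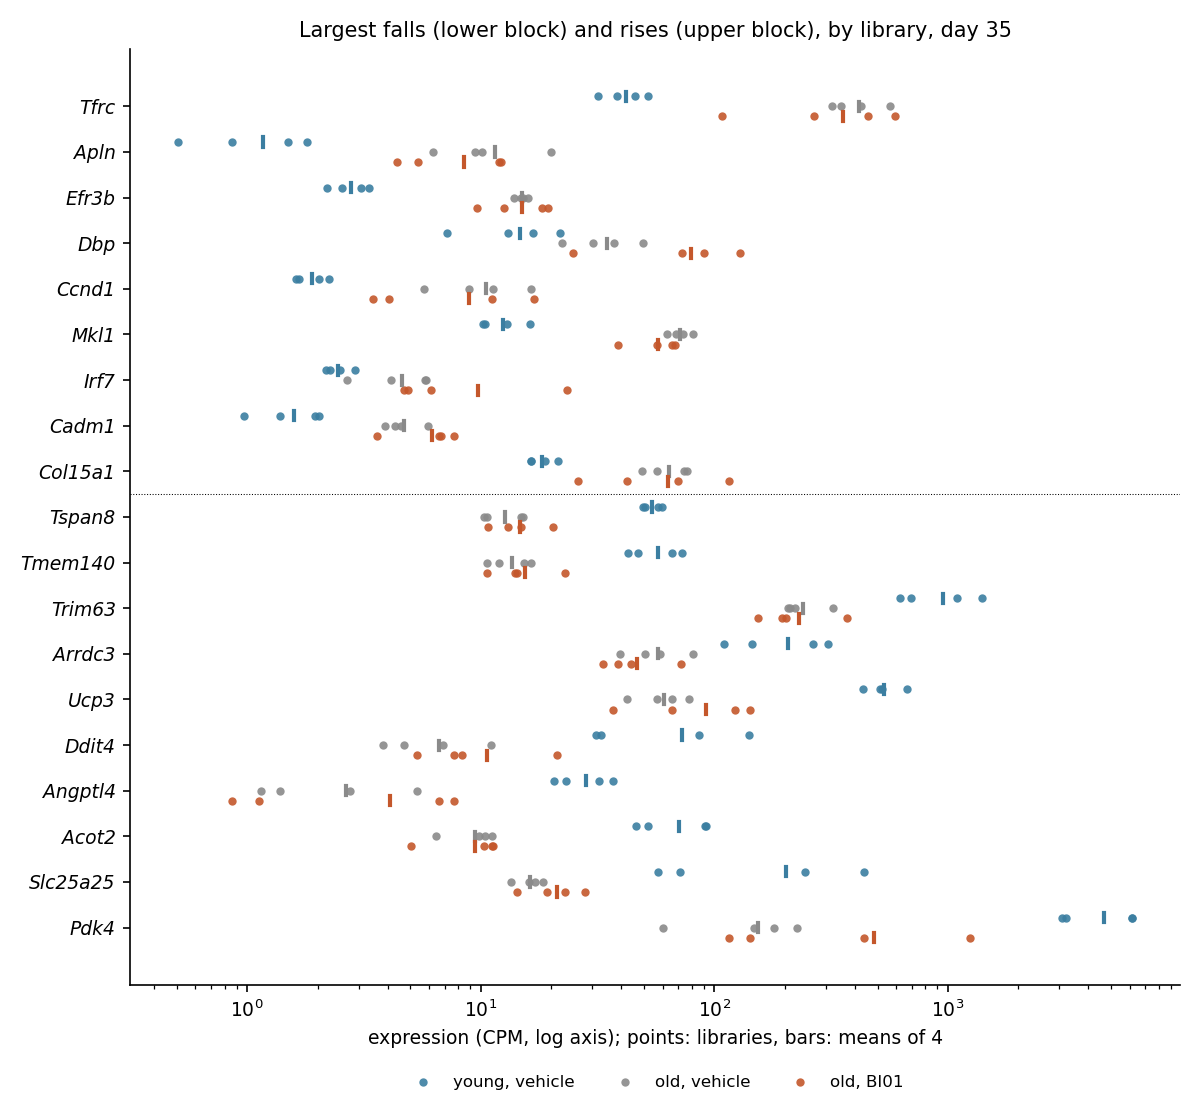
Expression of the 10 largest falls (lower block) and 9 of the 10 largest rises (upper block) in each day 35 library, in CPM on a log axis, with points for libraries and bars for the means of 4. The naming rule required that BI01 and young libraries do not overlap; for Dbp, 3 of the 4 BI01 libraries (72.4 to 129 CPM) also lie above all old vehicle libraries (22.4 to 49.4 CPM).

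Among the rises, Tfrc (chr16:32608920-32632794), the transferrin receptor through which cells take up iron, was at 45.5, 51.8, 38.5 and 31.9 CPM in young and at 107, 267, 596 and 455 CPM in BI01 libraries (3.09, SE 0.43, adjusted p = 0.000101). BI01 library 6 was the lowest for Tfrc and the highest for Pdk4. Mkl1 (chr15:81012281-81190757), the coactivator MRTF-A that carries actin signals to serum response factor, was at 10.4, 10.3, 16.2 and 13.0 CPM in young and at 38.8, 65.6, 57.1 and 67.9 CPM in BI01 libraries (2.20, SE 0.20, adjusted p = 6.33e-08). Efr3b (chr12:3962554-4038915), which anchors a lipid kinase at the plasma membrane, was at 2.20 to 3.32 CPM in young and at 9.64 to 19.4 CPM in BI01 libraries (2.44, SE 0.33, adjusted p = 4.19e-05). Cadm1 (chr9:47530173-47857637), a cell adhesion molecule, was at 0.968 to 2.04 CPM in young and at 3.59 to 7.69 CPM in BI01 libraries (1.97, SE 0.32, adjusted p = 0.000799). Ccnd1 (chr7:144929931-144939925), the cyclin D1 that opens the cell cycle, was at 3.45, 4.03, 11.1 and 16.9 CPM in BI01 libraries against 1.61 to 2.23 CPM in young ones (2.23, SE 0.46, adjusted p = 0.00831, or 0.0631 without BI01 library 9). Of 31 cell division genes 0 were called, and Mki67, which marks dividing cells, was at 1.58 and 0.46 CPM in BI01 and young muscle.

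The peptide hormone gene Apln (chrX:48025146-48034853) and, picked after its value was seen, the gene of its receptor Aplnr (chr2:85136225-85139923) were both higher. Apelin is released by muscle and acts on endothelial and muscle stem cells. Apln was at 1.81, 1.49, 0.505 and 0.862 CPM in young and at 4.39, 5.38, 12 and 12.2 CPM in BI01 libraries (2.83, SE 0.62, adjusted p = 0.0127), and lost the call without young library 3 (0.0562) and BI01 libraries 8 (0.053) and 9 (0.0529). Aplnr was at 11.4, 7.02, 6.42 and 10.2 CPM in young and at 14.7, 13.1, 24.7 and 37.9 CPM in BI01 libraries (1.37, SE 0.33, adjusted p = 0.0274), and lost it without young libraries 2 (0.125), 3 (0.107) and 4 (0.0508) and BI01 libraries 8 (0.0825) and 9 (0.186). BI01 libraries 8 and 9 were the highest for both, as for Ccnd1. Of 20 endothelial genes 0 were called, with a median of 0.19. Other rises chosen after the fact were cytoskeletal. Actg1, a cytoplasmic actin with near-identical paralogs, was at 66.5 ± 10.1 CPM in young and 153 ± 26.7 CPM in BI01 muscle (1.20, SE 0.26, adjusted p = 0.011), and lost the call without young library 2 (0.0662) and BI01 library 8 (0.0555). Smtn, the smooth muscle protein smoothelin, was at 57.3 ± 7.33 and 114 ± 12.5 CPM (0.99, SE 0.15, adjusted p = 0.000287). It was the called member of 14 smooth muscle and pericyte genes (7.14%, against 1.66% of all genes), 13 of which had a positive fold change.

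The circadian clock list was split, with 3 of 20 genes higher and 1 lower (20% called, against 1.66% of all genes). Its median was -0.10. Dbp (chr7:45705088-45710203), a clock output transcription factor, was at 7.17, 13.1, 21.9 and 16.7 CPM in young and at 72.4, 129, 90.6 and 24.9 CPM in BI01 libraries (2.43, SE 0.44, adjusted p = 0.00293). Nr1d1 (chr11:98767932-98775333), the repressor REV-ERB alpha, was at 66.3, 57.3, 31.7 and 42.8 CPM in young and at 195, 164, 173 and 149 CPM in BI01 libraries (1.78, SE 0.35, adjusted p = 0.00584). Clock, the activator that pairs with ARNTL, was at 25.6 to 31.3 CPM in young and at 40.1 to 64.7 CPM in BI01 libraries (0.78, SE 0.21, adjusted p = 0.0431). It kept the call only without BI01 library 6, with adjusted p-values of 0.139, 0.102, 0.0833 and 0.105 without young libraries 1 to 4 and 0.0631, 0.0832 and 0.207 without BI01 libraries 7 to 9. Nfil3, a repressor that opposes DBP at the same sites, was lower in BI01 muscle, at 12.9 ± 4.13 CPM against 24.5 ± 7.56 CPM (-0.93, SE 0.24, adjusted p = 0.0395), and 1 BI01 library lay inside the young range. Its call was lost without young libraries 1 (0.0537), 3 (0.165) and 4 (0.138) and BI01 libraries 7 (0.112), 8 (0.171) and 9 (0.0981). The period gene Per1 was not called. It was at 133, 137, 217 and 135 CPM in young, at 167, 94.0, 45.5 and 21.0 CPM in BI01 and at 9.72, 12.9, 13.2 and 60.2 CPM in old vehicle libraries. BI01 library 6 thus lay inside the young range and libraries 8 and 9 inside the old vehicle range. Cebpd, a glucocorticoid-responsive factor in the atrophy list, was spread in the same way, at 96.2, 18.8, 10.9 and 7.17 CPM in BI01 libraries 6 to 9 against 67.2 to 93.0 CPM in young ones. Arntl was at 22 and 22.4 CPM in BI01 and young muscle. The sources used here do not give the hour of day at which each muscle was taken, and its part in these values was not tested.

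**Figure D2:**
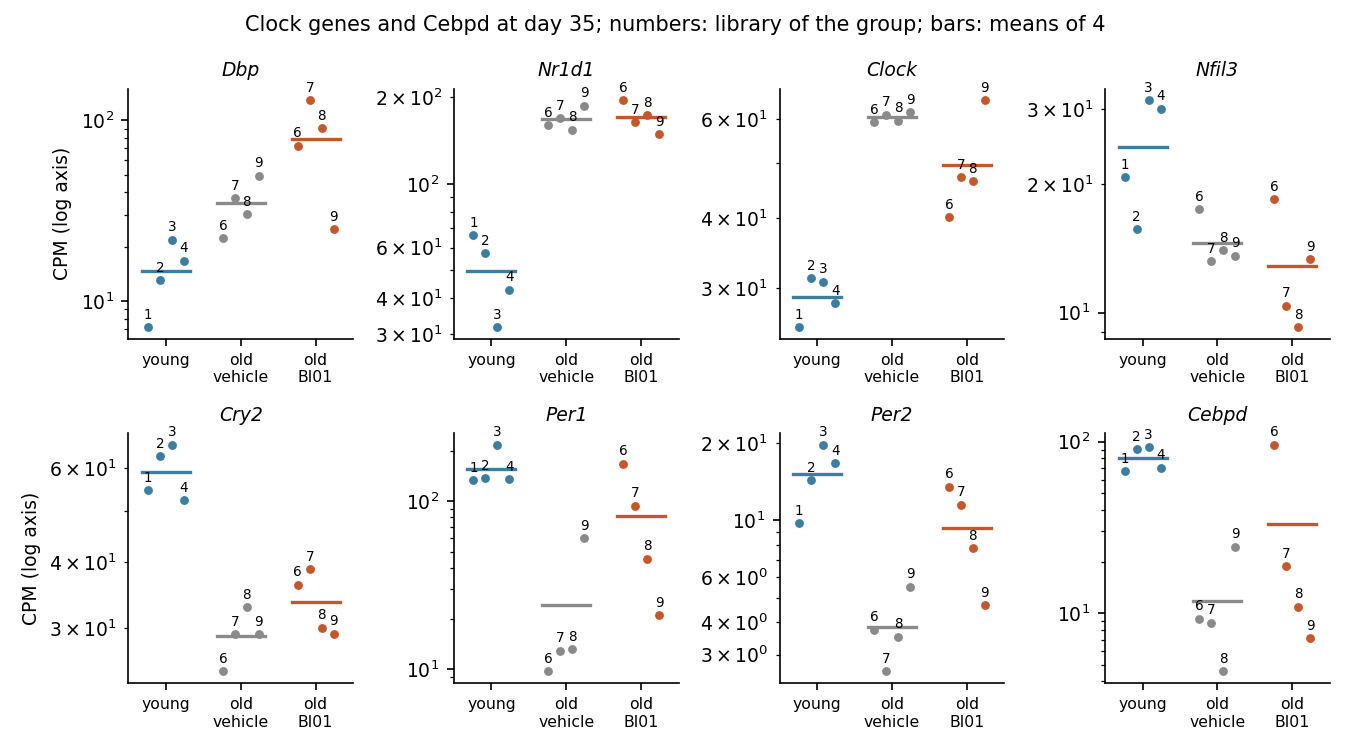
Clock genes and Cebpd in each library of the 3 groups at day 35, in CPM on log axes, with the library number beside each point and bars for the means of 4. Dbp and Nr1d1 are above all young libraries in all 4 BI01 libraries, while Per1 and Cebpd are near the young level in BI01 library 6 and within the old vehicle range in BI01 libraries 8 and 9.

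Col15a1, Col4a1 and Col4a2 were the called genes of the collagen and matrix list. Of its 41 genes 3 rose and 0 fell (7.32% called, against 1.66% of all genes). Of these 41, 33 had a positive fold change, as did 52.3% of all genes, and the median was 0.55. Col15a1 (chr4:47208161-47313167), a collagen between fibres, capillaries and nerves, was at 16.4, 16.5, 18.8 and 21.5 CPM in young and at 42.4, 26.1, 70.1 and 116 CPM in BI01 libraries (1.80, SE 0.32, adjusted p = 0.00244). Col4a1 (chr8:11198423-11312826) and Col4a2 (chr8:11312805-11449287) encode the main chains of basement membrane and start head to head, with overlapping ends in the count table. Col4a1 was at 138 ± 22.9 CPM in young and at 200, 122, 296 and 492 CPM in BI01 libraries (1.01, SE 0.27, adjusted p = 0.0416). Col4a2 was at 113 ± 17.5 CPM in young and at 163, 117, 212 and 356 CPM in BI01 libraries (0.91, SE 0.22, adjusted p = 0.0274). In both, BI01 library 7 lay within the young range and library 9 was highest. Col4a1 lost the call without young libraries 1 (0.0658), 2 (0.155), 3 (0.0842) and 4 (0.138) and BI01 libraries 8 (0.114) and 9 (0.356), and without library 9 its log2 fold change was 0.58. Col4a2 lost it without young libraries 2 (0.109), 3 (0.0572) and 4 (0.106) and BI01 libraries 8 (0.0714) and 9 (0.263, log2 fold change 0.54). The fibrillar collagens Col1a1 (228 and 134 CPM in BI01 and young muscle) and Col3a1 (494 and 252 CPM) did not pass the test. The summed level of the list was 1330 to 5127 CPM in BI01 and 1605 to 2513 CPM in young libraries, so that the BI01 range took in the young one. Of 18 genes of fibro-adipogenic progenitors, the fibroblast-like cells of muscle, 1 was called (5.56%, against 1.66% of all genes). This was the transcription factor gene Hic1, at 10.2 ± 2.70 and 5.53 ± 1.48 CPM in BI01 and young muscle (adjusted p = 0.0434). It lost the call without young libraries 2 (0.138), 3 (0.186) and 4 (0.0917) and BI01 libraries 6 (0.0849), 8 (0.114) and 9 (0.194).

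Interferon response genes were higher in few cases. Of 33 tested, 3 rose and 0 fell (9.09% called, against 1.66% of all genes). Of these 33, 30 had a positive fold change, as did 52.3% of all genes, and the median was 0.69. Irf7 (chr7:141262706-141266481), the factor that amplifies type I interferon, was at 2.26, 2.18, 2.89 and 2.51 CPM in young and at 23.3, 4.70, 6.10 and 4.88 CPM in BI01 libraries (1.99, SE 0.50, adjusted p = 0.0343). BI01 library 6 carried much of this value: without it the log2 fold change was 1.09 and the adjusted p 0.267, and the call was also lost without young libraries 1 (0.107), 2 (0.132), 3 (0.0755) and 4 (0.088). Oasl2, an antiviral protein with close paralogs, was at 2.17 to 3.40 CPM in young and at 10.6, 4.11, 7.97 and 6.89 CPM in BI01 libraries (1.41, SE 0.34, adjusted p = 0.0273). It kept the call only without BI01 library 7, with adjusted p-values of 0.0775, 0.0611, 0.0975 and 0.0735 without young libraries 1 to 4 and 0.103, 0.0772 and 0.057 without BI01 libraries 6, 8 and 9. Stat2 (chr10:128270559-128292849), which carries the interferon signal to DNA, was at 7.42, 7.28, 5.27 and 7.05 CPM in young and at 13.2, 10.5, 13.9 and 11.6 CPM in BI01 libraries (0.86, SE 0.21, adjusted p = 0.0249). It lost the call without young libraries 2 (0.0651), 3 (0.105) and 4 (0.0515) and BI01 libraries 6 (0.0579), 8 (0.0945) and 9 (0.0507).

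No immune marker list had a called gene, which in lists of this size is near the 1.66% called over all genes. Most of the members lay above 0, as did 52.3% of all genes tested. Such counts of signs were not tested. All 22 antigen presentation genes had a positive fold change, with a median of 0.52 and 0 called; Cd74, the class II invariant chain, was at 99.6 and 66.0 CPM in BI01 and young muscle. The median was 0.66 over 21 macrophage genes, 1.41 over 22 T and NK cell genes (1.5 with genes without young counts set at a floor of 3 counts per group) and 1.83 over 5 neutrophil genes. Summed macrophage markers (Adgre1, Csf1r and Cd68) were at 11.4 to 42.7 CPM in BI01 and 12.3 to 25.4 CPM in young libraries. T cell markers (Cd3e, Cd3d and Trac) were at 0.672 to 1.29 CPM against 0.258 to 0.314 CPM and neutrophil markers (S100a8, S100a9 and Csf3r) at 1.47 to 6.98 against 0.505 to 0.904 CPM. In both the BI01 and young ranges did not overlap, at levels of a few CPM or less. B and plasma cell genes (11 tested, 9 above 0, median 0.89) summed to 96.2 to 144 CPM in BI01 and 124 to 173 CPM in young libraries, which overlapped. Of their 3 defining markers (Cd79a, Ms4a1 and Jchain) 1 passed the filter on low counts, Jchain, and the 3 summed to 1.81 to 5.31 CPM in BI01 and 0.314 to 1.80 CPM in young libraries. Whether these cells carry the interferon values was not tested. Tnfaip3, a brake on NF-kappaB signalling picked after its value was seen, rose from 3.58 ± 1.22 to 9.29 ± 3.47 CPM (1.39, adjusted p = 0.0226), and lost the call without young libraries 1 (0.103), 2 (0.098) and 3 (0.0565) and BI01 libraries 8 (0.0621) and 9 (0.135).

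The genes closest to the proposed action of BI01 did not pass the test. Cdkn1a was at 46.7, 18.1, 40.1 and 29.8 CPM in young and at 54.7, 27.6, 22.5 and 33.1 CPM in BI01 libraries (0.03, 95% interval -0.81 to 0.88, adjusted p = 0.998). Cdkn2a was at 4.91, 3.30, 3.82 and 7.52 CPM in young and at 4.03, 4.33, 4.96 and 5.16 CPM in BI01 libraries (-0.08, interval -1.0 to 0.85, adjusted p = 0.986). Their groups overlapped, and the direction of both turned without some single libraries. Mdm2, the ligase that degrades p53, was at 63.4 ± 4.64 and 63.8 ± 2.89 CPM in young and BI01 muscle (0.01, interval -0.24 to 0.26, adjusted p = 0.998), and its direction also turned without some single libraries. Trp53, which encodes p53, was at 20.5, 19.6, 16.6 and 17.2 CPM in young and at 16.2, 12.8, 13.9 and 15.3 CPM in BI01 libraries (-0.35, interval -0.71 to 0.02, adjusted p = 0.429). Of 29 p53 target genes 1 was called (3.45%, against 1.66% of all genes), Btg2, which was lower. Of 37 senescence and secretory genes 2 rose (5.41% called) and 0 fell, with a median of 0.50. Igfbp5, an IGF binding protein also made by muscle fibres, was at 185, 393, 327 and 352 CPM in young and at 975, 1307, 902 and 842 CPM in BI01 libraries (1.68, SE 0.39, adjusted p = 0.0186), and lost the call without young libraries 1 (0.0892) and 3 (0.0515) and BI01 library 7 (0.0538). Cxcl12, a chemokine made by stromal cells, was at 49.2 ± 8.21 and 86.3 ± 20.3 CPM (0.81, SE 0.17, adjusted p = 0.00719), and lost it without young library 2 (0.0523) and BI01 library 9 (0.0553). The senescence-associated cytokine gene Il6 was at 0.106 and 0.0756 CPM in BI01 and young muscle.

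Several lists of fibre structure and energy supply held no called gene. With 1.66% of all genes called, 0 or 1 called gene in a list of this size is close to what that share gives. There were 0 of 20 mature fast fibre genes called (median 0.00), 0 of 37 nuclear respiratory chain genes (0.03), 0 of 13 mitochondrially encoded genes (0.02), 0 of 23 glycolysis and glycogen genes (-0.01), 0 of 23 regenerating and fetal fibre genes (0.26) and 0 of 17 slow fibre genes (0.46). The slow fibre genes Myh7 and Myl2 had no counts in either group. Of 31 genes of the neuromuscular junction and denervation 1 rose, Agrn, which gathers acetylcholine receptors, from 21.9 ± 2.74 to 32.7 ± 5.39 CPM (0.58, adjusted p = 0.0235). It lost the call without young libraries 2 (0.122) and 3 (0.0872) and BI01 libraries 6 (0.103), 8 (0.063) and 9 (0.0626). Of 15 Schwann cell and myelin genes 1 fell, the neuregulin receptor gene Erbb3, from 17.5 ± 6.61 to 6.35 ± 2.58 CPM (-1.46, adjusted p = 0.0106, or 0.0737 without young library 1). Among the called genes described, Acot1, Plin5, Fbxo32, Sqstm1, Cebpb, Igfbp5, Cxcl12, Hic1, Agrn and Erbb3 fall outside the naming rule and were chosen after their values were seen, as were Per1, Per2, Cebpd, Krt18 and Cxcl10.

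Some calls of the genes above also ended under another fit, with the same direction in each. With the 8 libraries fitted alone this held for Pdk4 (adjusted p = 0.0765), Slc25a25 (0.054), Angptl4 (0.0515), Ddit4 (0.0673), Nfil3 (0.0729), Dbp (0.055), Irf7 (0.0697), Col15a1 (0.0578), Col4a1 (0.187), Col4a2 (0.136), Plin5 (0.0857), Cebpb (0.0886), Hic1 (0.0575) and Aplnr (0.0587). With limma voom it held for Apln (0.344), Ccnd1 (0.168), Irf7 (0.211), Oasl2 (0.205), Stat2 (0.109), Col4a1 (0.118), Col4a2 (0.0601), Clock (0.0706), Nfil3 (0.0853), Fbxo32 (0.0581), Hic1 (0.15), Aplnr (0.071) and Tnfaip3 (0.071). Without a filter on low counts it held for Angptl4 (0.0637), Tspan8 (0.061), Col4a1 (0.0918), Oasl2 (0.0719), Irf7 (0.102), Plin5 (0.127), Fbxo32 (0.127), Cebpb (0.143), Agrn (0.0956), Hic1 (0.0523), Aplnr (0.0853) and Igfbp5 (0.0656). With library size alone it held for Nfil3 (0.062), Plin5 (0.062), Cebpb (0.0668) and Hic1 (0.0587). The falls of Acot2, Ucp3, Mlycd, Arrdc3, Tmem140, Fbxo21 and Ulk1 and the rises of Tfrc, Mkl1, Efr3b, Cadm1 and Nr1d1 kept the call under every alternative run, single libraries left out included.

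**Figure D3:**
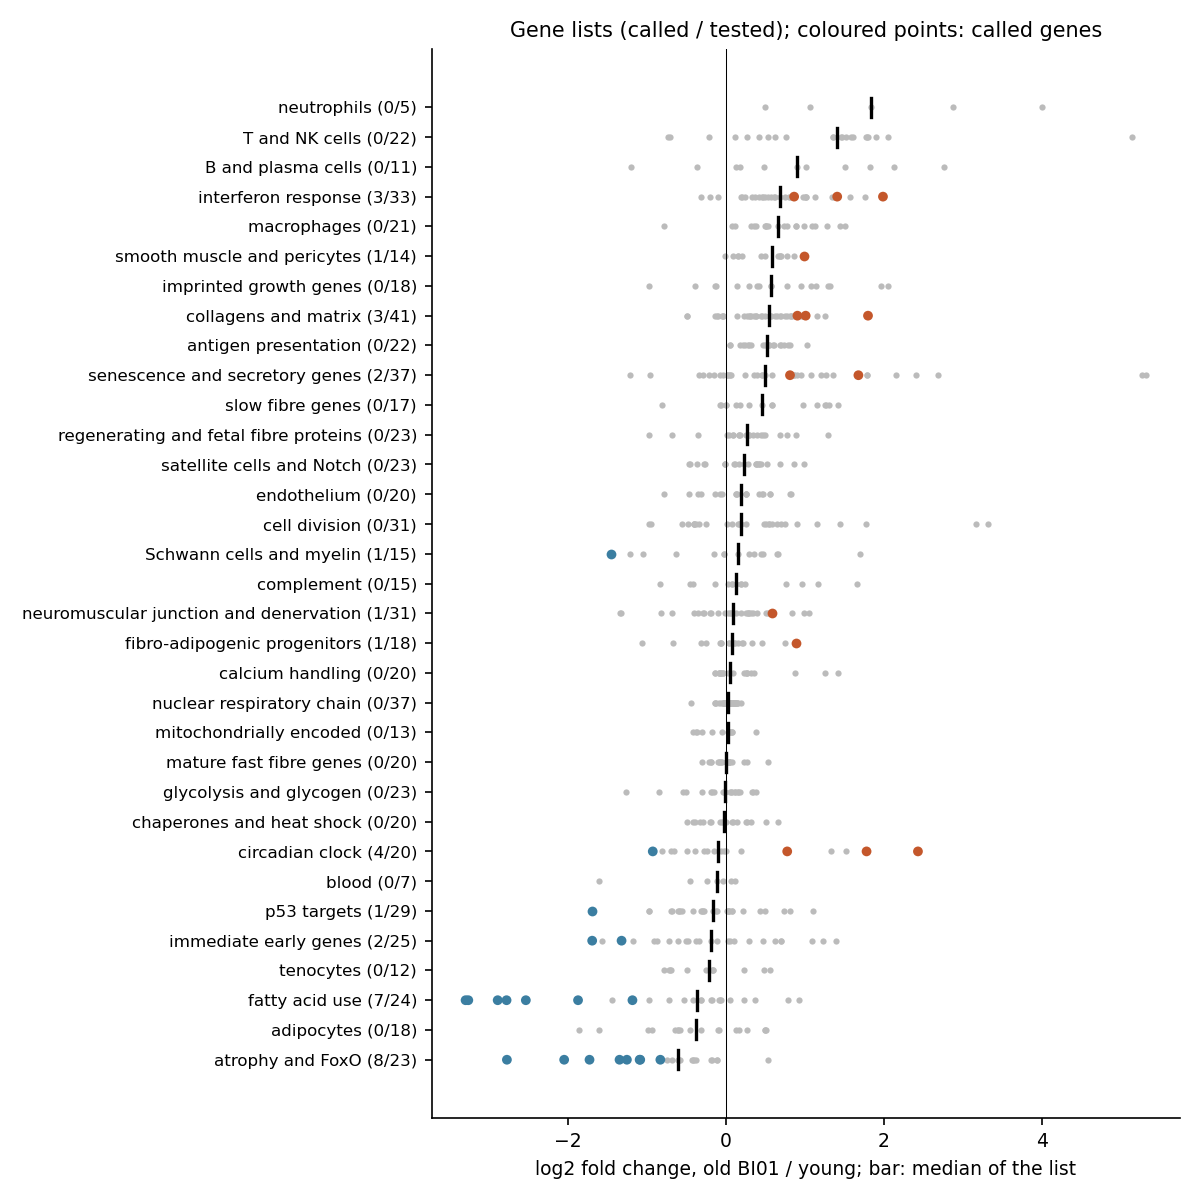
Log2 fold changes (old BI01 over young, day 35) of the tested members of 33 gene lists, ordered by median (black bar), with called genes coloured and the called and tested numbers beside each name. Called falls gather in the fatty acid (7 of 24) and atrophy (8 of 23) lists, against 0.783% of all genes called lower.

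Old vehicle muscle at day 35 gave 601 genes that differed from the same 4 young libraries (3.51%), 295 higher (1.72%) and 306 lower (1.79%). As both comparisons use the same young libraries, their values are given side by side only. Against young muscle, old vehicle and old BI01 muscle had log2 fold changes of -4.92 and -3.26 for Pdk4, -2.89 and -2.89 for Acot2, and -1.99 and -2.05 for Trim63. The pairs were 3.31 and 3.09 for Tfrc, 2.52 and 2.20 for Mkl1, 1.24 and 2.43 for Dbp, and 0.91 and 1.99 for Irf7. The list medians in old vehicle and old BI01 muscle were -0.54 and -0.37 for fatty acid use (7 and 7 called lower), -0.89 and -0.61 for atrophy and FoxO (13 and 8 called lower), 0.39 and 0.55 for collagens and matrix, and 0.53 and 0.69 for interferon response.

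The direct test of old BI01 against old vehicle muscle called 0 of 17121 genes (0%) with edgeR and 0 with limma voom. By edgeR 530 (3.1%) had an unadjusted p below 0.05, a smaller share than that threshold would give without any difference. DESeq2 called 12: Aif1l, Krt18, Rrad, Krt8, Myl2, Hpgd, Ggt6, Cpne2, Cxcl10 and Sh3d19 were lower, and Lrch1 and Rbm33 higher, with BI01. Krt18, a keratin of simple epithelia that injured muscle can express, was at 15.6, 163, 46.2 and 34.9 CPM in old vehicle, at 2.59, 3.21, 3.68 and 4.02 CPM in BI01 and at 8.59, 7.02, 8.44 and 2.43 CPM in young libraries. The interferon-induced chemokine gene Cxcl10 was at 1.27, 3.87, 2.25 and 1.05 CPM in old vehicle, 0.144 to 0.299 CPM in BI01 and 0.194 to 1.08 CPM in young libraries. Both genes were among these 12 and were picked after their values were seen. Their old BI01 libraries did not overlap the old vehicle ones, which is thus no separate test. By edgeR their differences (BI01 minus old vehicle) were -4.27 (95% interval -6.20 to -2.33, adjusted p = 0.389) for Krt18 and -3.28 (-5.05 to -1.51, adjusted p = 0.752) for Cxcl10. For Pdk4 the difference was 1.65 (0.46 to 2.85, adjusted p = 1), for Per1 1.78 (0.51 to 3.05, adjusted p = 1), for Per2 1.29 (0.65 to 1.94, adjusted p = 0.489) and for Dbp 1.19 (0.32 to 2.06, adjusted p = 1). None of these passes the test over all genes. For Acot2 the interval was -0.56 to 0.57 and for Mkl1 -0.70 to 0.07, and the median gene's interval reached 0.59 to either side, which does not show that the 2 old groups are alike.

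**Figure D4:**
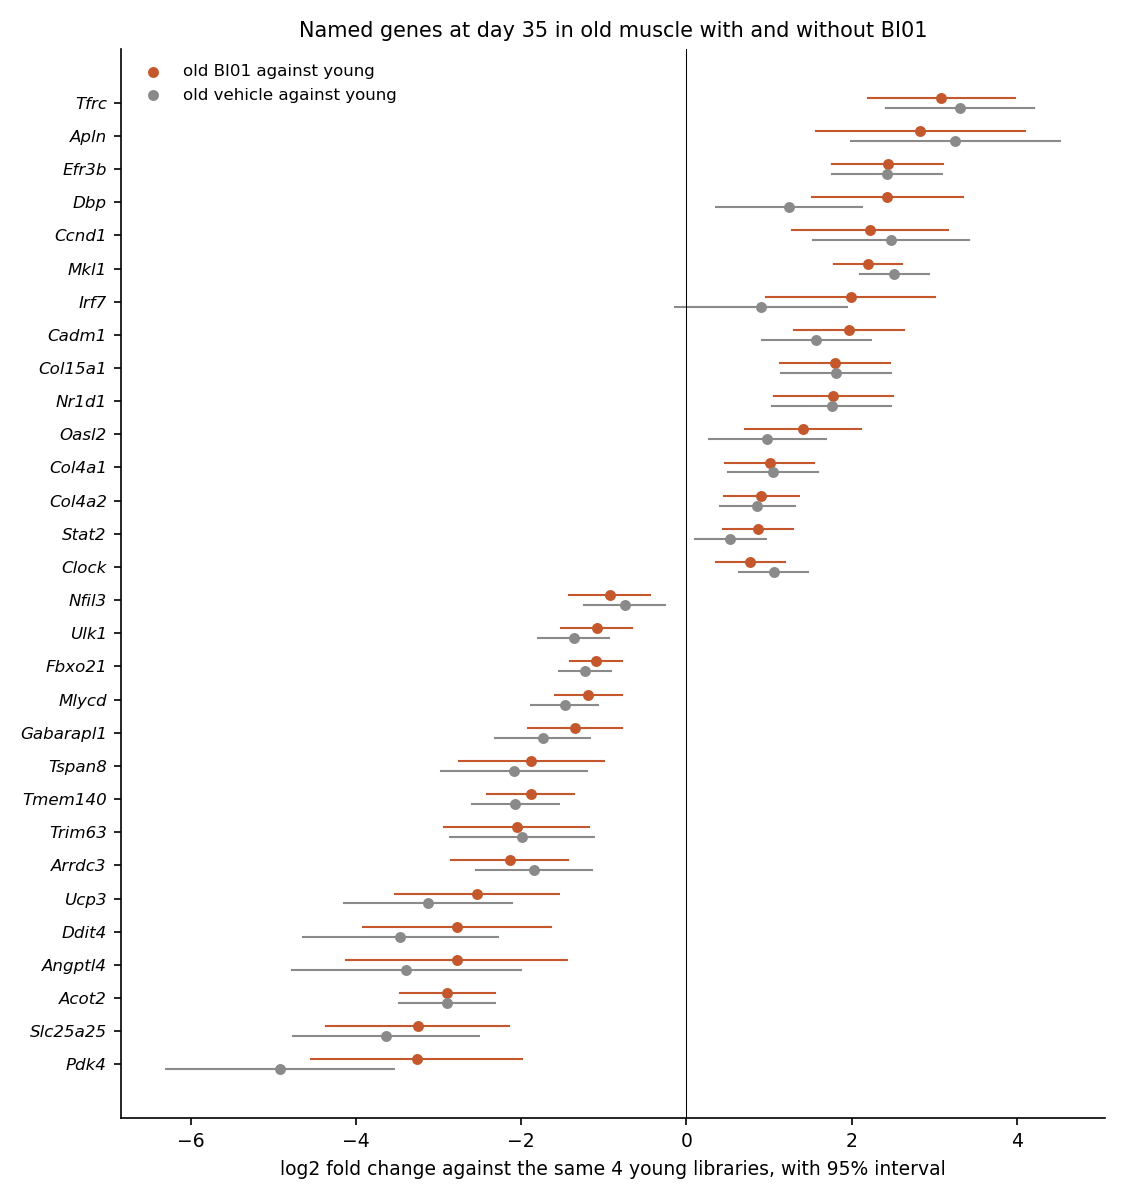
Log2 fold changes with 95% intervals of the 30 called named genes in old BI01 (orange) and old vehicle (grey) muscle, each against the same 4 young libraries of day 35. The intervals overlap for every gene shown. As both use the same young libraries, this overlap does not test the 2 old groups against each other. Pdk4 (-3.26 and -4.92), Dbp (2.43 and 1.24) and Irf7 (1.99 and 0.91) have the points farthest apart.

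The age difference in uninjured muscle rests on 8 other libraries. In the count table their names carry the same day and numbers as those of day 35 (1 to 4 in young, 6 to 9 in old). Some vehicle libraries, young or old, may thus be of the same mice as those of day 35, which the sources used here do not say. The old BI01 and old uninjured libraries have different treatments by their labels, so a shared number there does not mark the same mouse. The counts that follow are thus not known to rest on independent animals. There, 2302 genes differed (13.4%), 992 higher (5.79%) and 1310 lower (7.65%) in old muscle (43.1% higher, or 78.0% with library size alone, which moved the median of all genes from 0.09 to 0.29). Of the 284 genes of the day 35 comparison, 179 were called in uninjured muscle with the same direction (63.0% of the 284 and 7.78% of the 2302), 79 higher and 100 lower, and 0 with the opposite one. The sign was shared by 271 of the 284 (95.4%) and by 66.0% of all genes. Acot2 fell from 104 to 12.6 CPM with age in uninjured muscle (-3.05), Pdk4 from 4922 to 247 CPM (-4.32) and Trim63 from 2398 to 325 CPM (-2.88), and Mkl1 rose from 10.3 to 53.6 CPM (2.39). Tspan8, Col15a1 and Apln were not called there. Tspan8 was at 57.0 CPM in young and 67.7 CPM in old uninjured muscle (0.25, adjusted p = 0.748), Col15a1 at 11 and 14.0 CPM (0.34, adjusted p = 0.538) and Apln at 0.670 and 1.64 CPM (1.31, adjusted p = 0.265). The test of the difference between the 2 age differences called 0 genes (0%) with edgeR, 0 with voom and 25 with DESeq2. By edgeR 1575 genes (9.2%) had an unadjusted p below 0.05. Without young uninjured library 4 it called 23, and without old uninjured library 9 it called 1, Mib1, a ligase of the Notch pathway. Over the 992 genes higher in old uninjured muscle the median at day 35 was 0.38 in old BI01 and 0.43 in old vehicle muscle, and over the 1310 lower genes it was -0.28 and -0.30.

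At day 7, while fibres are being rebuilt, old BI01 muscle differed from young muscle in 249 genes (1.45%), 78 higher (0.456%) and 171 lower (0.999%). Of these, 4 were also called at day 35 with the same direction (1.41% of the 284 and 1.61% of the 249): Synpo, Cxcl12, Mtss1 and Parm1. The sign was shared by 48.9% of the 284 genes and 52.1% of all genes. The old BI01 minus young difference itself differed between the 2 times in 240 genes (1.40%). It was higher at day 35 than at day 7 in 164 (0.958%) and lower in 76 (0.444%). The 3 lowest were Pdk4 (-3.81), Ddit4 (-3.67) and Angptl4 (-3.62). Pdk4 was at 50.5 CPM in young and 73.6 CPM in BI01 muscle at day 7, far below either level at day 35. Its call was lost without young day 35 library 1 (0.0529) and BI01 day 7 library 1 (0.06), and without BI01 day 35 library 6 the difference was -4.87. Ddit4 was at 5.54 and 10.4 CPM and Angptl4 at 11.4 and 20.4 CPM in young and BI01 muscle at day 7. Angptl4 lost the call without young libraries 1 (0.0859), 2 (0.0614) and 4 (0.0552) and BI01 libraries 7 (0.0698) and 9 (0.0807) of day 35, and without young libraries 4 (0.0705), 6 (0.0579) and 7 (0.0878) and BI01 libraries 1 (0.105, difference -2.98) and 2 (0.0565) of day 7. Without the filter on low counts its adjusted p was 0.0881. The highest included Nrk and Aqp4. Aqp4, the water channel of fast fibres, was at 5.10 CPM in young and 0.682 CPM in BI01 muscle at day 7 and at 8.99 and 34.7 CPM at day 35 (4.87, adjusted p = 0.00449, or 5.76 without BI01 day 7 library 4). Nrk, a kinase gene, had 1 count in the young and 20 in the BI01 libraries of day 35, against 18 and 7.4 CPM at day 7, so that its fitted 5.27 (adjusted p = 0.0488) depends on the model's prior count. It lost its call without young libraries 1 (0.0933, difference 7.06), 2 (0.116), 3 (0.094) and 4 (0.0981) and BI01 libraries 7 (0.0624) and 9 (0.245, difference 4.19) of day 35. The same held without young libraries 4 (0.0763), 5 (0.0623) and 7 (0.0737) and BI01 libraries 2 (0.0717), 3 (0.066) and 4 (0.0532) of day 7, with library size alone (0.0721), with limma voom (0.203) and without the filter (0.12). The 2 times are different collection days, which cannot be told apart from time, and scaling factors were 0.77 to 0.91 at day 35. At day 7 these factors were 1.06 to 1.42 in young and 1.45 to 1.67 in old BI01 libraries, with no overlap. With library size alone the median of all genes in this difference moved from 0.02 to -0.19 and the share of calls that were higher from 68.3% to 35.4%.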

How the data were processed

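RNA-seq of tibialis anterior muscle gave 32 libraries in 8 groups of 4. Per the labels' protocols, total RNA was isolated with a Qiagen miRNeasy kit and sequenced as mRNA by Novogene. The submitters' processing notes name HISAT2 and mm10; the sources used here do not give the counting tool, annotation release or strandedness. The authors deposited a table of raw counts per gene (54532 genes), which were checked to be whole numbers. Without known strandedness, genes that overlap or have close paralogs are uncertain.

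Columns of the table name the group and a number that is not the replicate number of the sample titles, so libraries are given by group and table number, and no column was left out. Whether libraries came from separate animals is not stated, and p-values then measure only the spread between these samples. Pairs of libraries of a group differed far beyond sampling noise.

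The counts were scaled by TMM and fitted in edgeR 4.0.16 (R 4.3.3) with filterByExpr, a robust quasi-likelihood model over all 32 libraries, 1 mean per group and contrasts of means. Adjusted p-values are Benjamini-Hochberg values over 17121 genes, from edgeR unless another tool is named, with a threshold of 0.05. In all, 5 pairs of groups were compared and 2 pairs of these differences. CPM are counts per 1e6 of the scaled library. Alternatives were library size alone, DESeq2 1.42.0, limma voom 3.58.1, other filters, the 8 libraries alone, each library left out and a block on shared column numbers. The fit was tested on simulated data.

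The comparison, its 33 gene lists and the rules were chosen with earlier results of these data known. Genes named are the 10 largest called rises and 10 largest called falls whose groups do not overlap and whose higher group averages 5 CPM or more (predicted genes and receptor segments left out), up to 4 called members with the smallest p of each list with at least 3 called members or 20% of its tested members called, Cdkn1a, Cdkn2a, Mdm2 and Trp53, and the 3 largest called values each way of each difference of differences where 1 group averages 5 CPM or more. Motifs were searched in the 250 bases before RefSeq starts, for 11904 tested genes, 31 of the 36 named genes among them. Results for a gene that this rule names and for a marker list are not reported here.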

Additional observations from a re-analysis of the deposited data

Results flagged for a closer look

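In 68 groups of 4 libraries examined for a single library far from the others, 3 held one, where chance gives about 1 in 20. The gap to the nearest library took a share of 0.855 of the group's range for Acot2 (BI01 library 7 lowest, 5.0 CPM), 0.905 for Fbxo21 (BI01 library 6 lowest, 13.7 CPM) and 0.925 for Irf7 (BI01 library 6 highest, 23.3 CPM).

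The difference between old BI01 and young muscle was itself different at day 35 and day 7 in 20 of 36 named genes and in 1.4% of all genes, by edgeR with adjustment over all genes. The named genes were picked for their day 35 difference, which is part of this value, and Pdk4, Ddit4, Angptl4, Nrk and Aqp4 for the value itself, so that the count is a description and nothing is read from it. The values below compare the old BI01 minus young difference at the 2 times, not the level of a gene. The difference was lower at day 35 than at day 7 for some fuel and atrophy genes and for Arrdc3 and Tmem140. The log2 values were -3.81 for Pdk4, -3.67 for Ddit4, -3.62 for Angptl4 and -2.98 for Acot2. Arrdc3 had -1.94, Gabarapl1 -1.56, Tmem140 -1.48 and Fbxo21 -1.22. For others the difference was higher, with 5.27 for Nrk, 4.87 for Aqp4, 3.56 for Tfrc and 3.10 for Efr3b. Mkl1 had 2.59, Ccnd1 2.40, Nr1d1 2.31 and Cadm1 1.77. The matrix genes had 2.36 for Col15a1, 1.47 for Col4a1 and 1.32 for Col4a2, and Clock had 1.20.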

How the results depend on the processing

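The count for old BI01 against young muscle was 284, 520 with DESeq2, 182 without a filter on low counts, 614 with the 8 libraries alone and 125 to 258 with a library left out. For old vehicle against young muscle it was 601, 919 with DESeq2 and 330 to 442 with a library left out. For old BI01 against old vehicle muscle it was 0, 12 with DESeq2 and 0 to 0 with a library left out. For age in uninjured muscle it was 2302, 1524 without the filter and 1013 to 2850 with a library left out. For the difference between day 35 and day 7 it was 240, 587 with DESeq2, 140 without the filter and 79 to 279 with a library left out. For the difference from uninjured muscle it was 0, 25 with DESeq2, 1 without the filter and 0 to 23 with a library left out. Of 30 named called genes, 17 kept the call with each of the 8 libraries left out in turn and 12 under every alternative run. DESeq2 lost 0, library size alone 1, voom 9, no filter 5 and the 8 libraries alone 10, among them Pdk4 (adjusted p = 0.0765), Ddit4 (0.0673) and Dbp (0.055). Directions turned only in genes near 0: Cdkn2a was at 0.031 with voom and between -0.228 and 0.206 with a library left out, Mdm2 between -0.0234 and 0.0586, and Cdkn1a between -0.278 and 0.234. They turned without young library 4 for Cdkn2a, without young libraries 1 and 2 and BI01 libraries 7 and 9 for Mdm2, and without young libraries 2 and 4 and BI01 library 6 for Cdkn1a. The causes of these shifts were not tested. No paired analysis was possible because the young and old groups of the main comparison share none of the column numbers (1 to 4 against 6 to 9). Old BI01 and old vehicle libraries of day 35 share 6 to 9, and the groups of the difference from uninjured muscle share theirs too, so a replicate block on these numbers was added after seeing the data. The block gave 0 genes for BI01 against old vehicle and 1, Mib1, for the difference from uninjured muscle. By the labels BI01 and vehicle went to different old mice, so a shared number between these groups does not mark the same mouse. There the block is not a test of pairing. Deviations from the group means of libraries with the same number correlated across 10218 genes (mean of 5 CPM or more) at -0.259 to 0.0917 (BI01 and old vehicle), -0.286 to 0.0172 (BI01 and old uninjured) and -0.096 to 0.342 (young day 35 and young uninjured, over 0.1 in 3 of 4 pairs, each of these 3 correlating best with its own number). For old vehicle libraries of day 35 and old uninjured libraries, which share the treatment, the correlations were 0.0143 to 0.209, over 0.1 in 2 of 4 pairs. The numbers were therefore not taken as pairs.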
